A study of Mus musculus with 30 samples.

Results

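Immortalised wild type mouse embryonic fibroblasts (MEFs) were stressed with 100 mM NaCl for 2 h, either alone or after treatment with the p38 inhibitor SB203580, and the effect of the inhibitor on each gene was taken as the difference between these conditions. The comparison rests on 4 of the 30 arrays of the series, 2 with NaCl and 2 with SB203580 plus NaCl, which were paired by replicate number. All cells were growing exponentially. The study calls the line wild type and immortalised, and no altered allele is stated for it. The labels give the inhibitor as 10 µM for 30 min before the stress in the treatment protocol and as 10 mM for 2 h in the titles, and the protocol is followed here. On every array the treated sample was labelled with Cy5 and hybridised against Cy3-labelled RNA of a pool of 2 untreated wild type cultures, so the pool cancels in the difference. Other groups are used beside these: wild type MEFs with NaCl for 45 min or 8 h with and without SB203580, wild type MEFs with SB203580 and no stress, and p38alpha knock out MEFs untreated or with NaCl for 2 h, each on 2 arrays. The study describes the replicates as independent experiments. Each genotype is represented by an immortalised line, and how many lines or embryos it came from is not given in the sources used here.

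p38 SAPKs are kinases that are switched on by upstream MAP kinase kinases when cells meet high salt, inflammatory cytokines or inhibitors of translation. Active p38 phosphorylates transcription factors and further kinases such as MK2 (Mapkapk2) and MSK1 (Rps6ka5), and through them it acts both on transcription and on the stability of messages that carry AU-rich elements. SB203580 occupies the ATP site of p38alpha and p38beta, and it does not block p38gamma or p38delta. High NaCl draws water out of cells, which answer first with immediate early genes and later with transporters and enzymes that accumulate organic osmolytes.

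On the 4 arrays 89.3% to 96.8% of spots were well above background in Cy5, and 11.6% to 21.1% of spots were marked as outliers and left out. The mean of a gene's probes on an array is given below as its log2 ratio of Cy5 to Cy3, where 0 is the level of the pool and 1 is 2-fold above it. Of 21689 genes, 16729 had a value on all 4 arrays and were tested, and 4960 lacked a value on at least 1 of them. All 10 tested fibroblast markers were well above background on the 4 arrays, but so were 4 of 4 epithelial, 8 of 8 leukocyte and 7 of 8 endothelial markers, so that call does not separate cell types here. None of these 30 markers passed the test of the difference, and 2 of the 8 leukocyte markers, Cd68 and Lyz2, were higher at an unadjusted p under 0.05, by 0.25 and 0.24. In RNA of whole cultures, fewer cells that express a gene and less RNA per cell cannot be told apart.

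Few genes could be told to differ between the conditions beyond the spread between arrays. Zfp36l1, which encodes an RNA-binding protein that targets AU-rich messages for decay, fell by 1.25 on the log2 scale, and Hs3st1, a heparan sulfate sulfotransferase, fell by 1.38. Ranbp6, an importin-like protein, and Fhl4, a LIM domain protein, had lower ratios as well but gave weak signals. These were the 4 genes of 16729 that passed at an adjusted p under 0.05 in limma, which is 0.0239% of the genes tested. No gene rose (0 of 16729), against 436 genes higher (2.61%) and 528 genes lower (3.16%) at an unadjusted p under 0.05. The spread in this test was estimated from all 22 wild type arrays and not from the 4 compared arrays alone. In a fit of those 4 arrays with the replicate block no gene passed (0), and the smallest limma adjusted p was 0.4995. Without the replicate block no gene passed (0), nor with another background correction and normalization (normexp and loess), where the smallest adjusted p were 0.0592 and 0.0997.

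Zfp36l1 stood at 2.28 and 2.31 with NaCl and at 0.96 and 1.12 with SB203580 plus NaCl. The replicates lay close together, and the groups did not overlap. The difference was -1.25 (SE 0.168, n = 2 pairs, limma adjusted p = 0.0335), a 2.39-fold lower level, and the 95% confidence interval ran from -1.62 to -0.89. Both probes of the gene gave the same picture, with pair differences of -1.33 and -1.18 for one and of -1.31 and -1.20 for the other. The call was lost when any 1 of the 4 arrays or either pair was left out, with differences from -1.32 to -1.19 then.

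Hs3st1 stood at 1.97 and 1.56 with NaCl and at 0.20 and 0.57 with the inhibitor. Its level with SB203580 plus NaCl was thus close to that of the pool, and the groups did not overlap. The difference was -1.38 (SE 0.199, n = 2 pairs, limma adjusted p = 0.0373), a 2.61-fold lower level. It was not called without replicate 1 of NaCl, without either array with the inhibitor or without pair 1, and the difference ran from -1.77 to -0.99 as arrays or pairs were left out.

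Ranbp6 and Fhl4 fall outside the rule for named genes, because not all 4 arrays were well above background, and they are named after their values were seen. Ranbp6 was 0.01 and -0.31 with NaCl and -1.06 and -1.27 with the inhibitor, a difference of -1.02 (SE 0.120, limma adjusted p = 0.0167). It was near or below the pool with NaCl already, and 1 of the 2 arrays with the inhibitor was not well above background. Fhl4 was 0.81 and 1.07 with NaCl and -0.08 and -0.06 with the inhibitor (limma adjusted p = 0.0335). Neither array with the inhibitor was well above background for Fhl4, so no fold is given. Its mean log2 Cy5 signal, normalized between arrays, was 6.02 with NaCl and 5.80 with the inhibitor. A fall in the level of Fhl4 is therefore not shown, only a lower ratio.

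The next genes in order of p did not pass, and they are described by their values. Zfp36, which encodes tristetraprolin, another protein of the same decay family as Zfp36l1, stood at 2.41 and 1.92 with NaCl and at 0.71 and 1.04 with the inhibitor, a difference of -1.28 (limma adjusted p = 0.345). Bdnf, a secreted neurotrophin, stood at 2.10 and 1.22 against 0.50 and 0.21 (difference -1.31, limma adjusted p = 0.186). Smad7, an inhibitor of TGF-beta receptor signalling, stood at 2.42 and 2.32 against 1.27 and 1.32 (difference -1.07, limma adjusted p = 0.195). Mycn, a Myc family transcription factor, stood at 1.95 and 1.67 against 0.94 and 0.98 (difference -0.85, limma adjusted p = 0.195), with pair differences of -1.49 and -1.03 in one probe and -0.54 and -0.35 in the other. In each of these 4 genes both arrays with the inhibitor lay below both arrays without it. This arrangement is common here, since 13.3% of all tested genes showed it.

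The remaining genes at the lower end were Mid1ip1, a regulator of lipogenesis, Hoxb2, a homeobox factor, Tmem202, Ovca2, 9530076L18 and 9930012K11Rik, with differences from -1.23 for 9530076L18 to -0.63 for Hoxb2 and limma adjusted p from 0.195 to 0.347. Tmem202 rested on a probe well above background on 1 of the 4 arrays, with pair differences of -1.30 and -1.45, while the probe above background on all 4 gave -0.23 and -0.52. Over the alternatives run, the differences came down to -0.15 for Tmem202, -0.45 for Ovca2, -0.49 for 9530076L18 and -0.59 for 9930012K11Rik. 9530076L18 varied between replicates, at 1.29 and 0.23 with NaCl. Ovca2 and 9930012K11Rik lay below the pool with NaCl already.

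**Figure D1:**
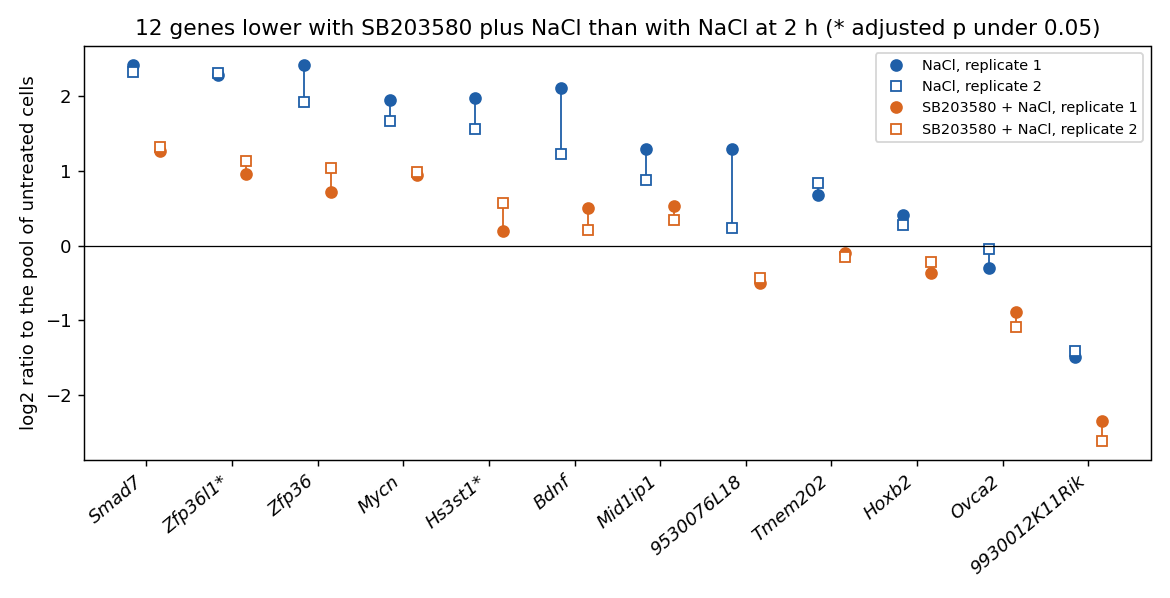
Log2 ratio to the pool of untreated cells (vertical axis) on each of the 4 arrays for the 12 genes named at the lower end, with filled circles for replicate 1, open squares for replicate 2, blue for NaCl and orange for SB203580 plus NaCl. In each gene both orange points lie below both blue points, and the asterisks mark Zfp36l1 and Hs3st1, which passed the test.

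Promoter sequences are shown for the genes whose start region held a match to a motif pattern of stress and serum response factors. RefSeq promoters (GRCm38.p6, 250 bases before to 50 bases after the start) were found for 7 of these 12 genes, with 13 sequences in all because Bdnf has several starts. They were searched on both strands for the cyclic AMP response element TGACGTCA, the pattern TGANTCA and the CArG box of serum response factor. TGANTCA is labelled AP-1 element below, but it allows any middle base, where the AP-1 consensus has C or G. The pattern TGANTCA was present in 2 of the 13 sequences, against 7.81% of all 32851 promoters. Its middle base was T in Zfp36l1 and A in Bdnf, so neither match is the consensus AP-1 element. The CArG box was present in 1 of the 13, against 1.63%, and the cyclic AMP element in 0 of the 13, against 1.79%. A match is a description of the letters and not a bound site. Windows of 30 bases follow, 5′ to 3′ on the strand of the gene, with the motif in capitals.
Zfp36l1, AP-1 element, chr12:80113124-80113153, minus strand: gaccgcatggcTGATTCAacctcagtgtca
Zfp36, CArG box, chr7:28379267-28379296, minus strand: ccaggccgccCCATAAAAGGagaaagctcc
Bdnf, AP-1 element, chr2:109676869-109676898, plus strand: acccacaaaaaTGAATCAaggtaatttcag

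At the upper end no gene passed, and the 12 genes with the smallest p are given by their values. The largest difference was in 1500002I01Rik, an uncharacterised transcript, which stood at 2.08 and 0.80 with NaCl and at 3.62 and 3.07 with the inhibitor (difference 1.90, limma adjusted p = 0.157). Pygl, the liver form of glycogen phosphorylase, stood at 0.41 and 0.24 against 2.16 and 1.11 (difference 1.32, limma adjusted p = 0.393). Its probes disagreed, with pair differences of 3.55 and 1.42 for a dimmer probe that was well above background on 3 arrays and of -0.04 and 0.33 for the brighter one, so that the value was 0.14 with the brighter probe alone. Lag3, an immune checkpoint receptor, stood at 0.73 and 0.62 against 1.38 and 1.53 (difference 0.78, limma adjusted p = 0.216). The other 9 were Fam222a, Mmp20, a tooth enamel protease, D830029L11, 6230426I18Rik, 4930444G20Rik, Ifng, the gene of interferon gamma, 9530057J20Rik, V1ri8 and LOC381579, with differences from 0.46 to 0.98. Over the alternatives run, the value of 1500002I01Rik lay between 0.62 and 2.55, that of Ifng came down to 0.12, and that of 9530057J20Rik turned to -0.017 with its brightest probe. Both arrays with the inhibitor were above both without it for 14.2% of all genes tested.

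Between the pairs, the differences of single genes had little in common. The genes named at either end were chosen with 1 sign in both pairs, so their likeness between pairs is no result. Over all 16729 genes the pair differences had a Pearson r of -0.03 and a Spearman rho of -0.09, a correlation across genes that are not independent replicates. Their SDs were 0.335 and 0.338, and the median difference was 0.003. The difference was below 0 in both pairs for 21.8% of genes and above 0 in both for 22.5%. A change of 2-fold or more in both pairs was seen for 6 genes lower (0.0359%) and 5 genes higher (0.0299%). The median standard error of a gene was 0.171. Differences above 1 in size did not all pass, such as Smad7 at -1.07, Bdnf at -1.31 and 1500002I01Rik at 1.90. Changes of 2-fold were thus not reliably detectable with 2 pairs, and a gene that did not pass is not shown to be unchanged. All first arrays of the wild type cells were scanned in 1 session and all second arrays in another, so each pair difference is also the value within a session.

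**Figure D2:**
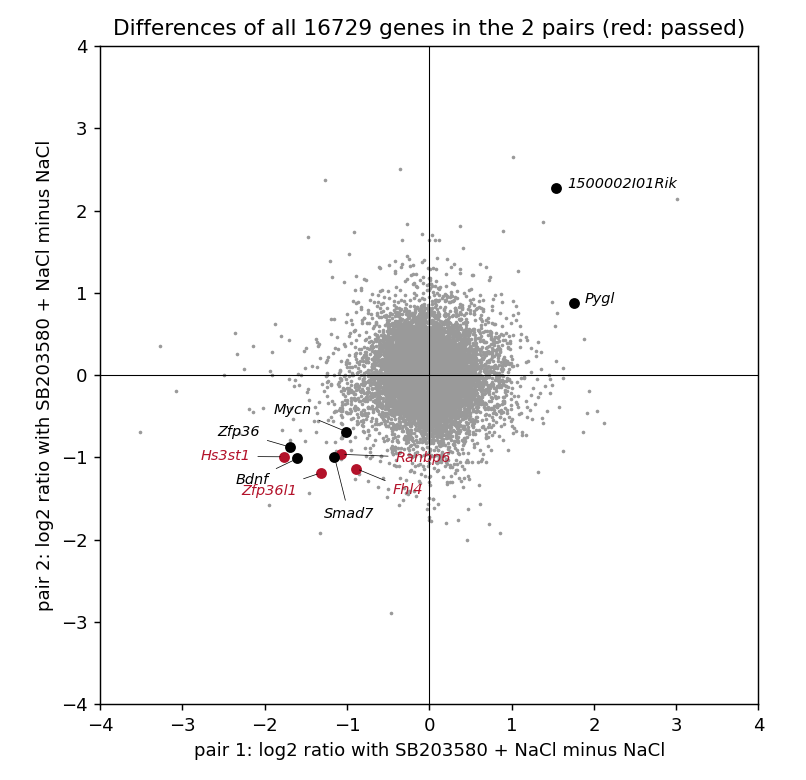
Difference in log2 ratio, SB203580 plus NaCl minus NaCl, in pair 1 (horizontal) and pair 2 (vertical) for the 16729 genes tested (grey), with the 4 genes that passed in red and other named genes in black; 3 genes lie outside the axes. The cloud has no slope (r = -0.03). The named lower genes lie at its lower left edge, where the choice by small p and 1 sign in both pairs puts them.

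None of the genes that the study measured by RT-PCR passed the test of the difference. The study reported lower levels of these mRNAs with SB203580 by RT-PCR, across its stimuli or its NaCl time course. It called a gene dependent on p38 by the size of the reduction, a measure unlike the adjusted test used here. By that rule it counted most genes induced at 2 h as affected by the inhibitor. Against the pool, 1292 of 18504 genes were lower (6.98%) and 1578 higher (8.53%) with NaCl at an adjusted p under 0.05, and 32% of genes had an unadjusted p under 0.05. Fos and Jun, which together form AP-1, kept a high level with the inhibitor. Fos stood at 4.05 and 3.87 with NaCl and at 3.10 and 3.68 with SB203580 plus NaCl (difference -0.57, 95% confidence interval -1.50 to 0.36). Jun stood at 3.84 and 3.17 against 3.82 and 3.99 (difference 0.40, interval -0.27 to 1.06). Ptgs2, the inducible cyclooxygenase, stood at 3.81 and 2.28 against 2.18 and 2.21, so its difference of -0.85 came mainly from pair 1, at -1.63, with -0.06 in pair 2. Dusp4, a nuclear MAP kinase phosphatase, stood at 1.80 and 1.44 against 0.88 and 0.92 (difference -0.72, limma adjusted p = 0.744).

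Mycn and Zfp36, described above with differences of -0.85 and -1.28, were also among the RT-PCR genes. The remaining 4 measured on all arrays had differences under 1.5 times their standard errors. Tnfaip3, an inhibitor of NF-kappaB signalling, differed by -0.07 (SE 0.238), and its pairs had opposite signs. Btg2, an antiproliferative protein, lay below the pool in both conditions and differed by -0.34 (SE 0.384). Hspa4l, a chaperone of the osmotic response, was at 0.17 and 0.22 against 0.23 and 0.61. Akr1b3, the aldose reductase that makes sorbitol, differed by -0.25 (SE 0.676). For Akr1b3 and Hspa4l some probes lacked a value on some arrays, so their array means rest on different probes. Mapk14, the gene of p38alpha itself, was 0.47 and 0.05 with NaCl and 0.30 on the array of SB203580 plus NaCl where it was measured, and it was not tested.

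Zfp36l1 was the 1 member of 24 gene lists that passed. The lists hold genes of the osmotic and p38 response, of growth and metabolism, and markers of cell types. Their members are set beside the 3.16% of all genes that were lower and 2.61% that were higher at an unadjusted p under 0.05. The lists were chosen with earlier results of these data known, so counts above those shares are no test. Of the 12 tested genes of mRNA decay, Zfp36l1 and Zfp36 were lower at that level, while their paralogue Zfp36l2 was not (difference -0.18), and the list's median difference was -0.11.

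Among the inducible transcription factors the differences were mixed. Of 15 tested AP-1 and Egr factors 2 were lower at an unadjusted p under 0.05, and of 21 other immediate early factors 7 were, with 0 higher in either list. Junb, an AP-1 subunit, stood at 0.94 and 1.63 with NaCl and at 0.43 and 0.15 with the inhibitor (limma adjusted p = 0.851). Ier5, an early response gene of stress and growth factors, stood at 2.97 and 2.53 against 1.83 and 2.09 (limma adjusted p = 0.797), and Snai1, a repressor of epithelial genes, at 1.41 and 0.74 against 0.39 and 0.38 (limma adjusted p = 0.773). Egr1, a zinc finger factor, stood at 2.07 and 2.32 against 1.42 and 2.17. Klf4 differed by -0.24 and Myc by -0.001, in Myc with pairs of opposite sign.

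The feedback phosphatases and the TGF-beta inhibitors also held genes on either side. Of 8 tested MAP kinase phosphatases, Dusp4 was lower at an unadjusted p under 0.05 and 0 were higher. Dusp1, which removes phosphate from p38 and JNK, was among the strongest NaCl-raised genes, at 3.51 and 3.34, and stood at 3.40 and 3.52 with the inhibitor. Its difference was 0.04 with a 95% confidence interval from -0.37 to 0.44, which leaves out a 2-fold change. Dusp10, a phosphatase of p38 and JNK, stood at 2.42 and 1.33 against 1.41 and 1.97, with pairs of opposite sign. Of 9 tested genes of Smad and TGF-beta feedback, Smad7 and Tgif1 were lower at an unadjusted p under 0.05. Tgif1, a corepressor of Smad proteins, stood at 2.16 and 1.31 against 0.50 and 0.78 (limma adjusted p = 0.604).

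Secreted signals and osmotic genes gave no member that passed. Of 17 chemokines, cytokines and NF-kappaB feedback genes 2 were lower at an unadjusted p under 0.05, among them Nfkbiz, a nuclear IkappaB protein, at 1.42 and 0.82 against 0.02 and 0.26 (limma adjusted p = 0.739). Of 14 osmolyte and Nfat5 target genes 1 was lower, the salt-induced kinase Sgk1, at 2.67 and 1.81 against 1.86 and 1.64 (limma adjusted p = 0.854). Nfat5, the transcription factor of tonicity, was near the pool in both conditions, at 0.03 and -0.07 against 0.20 and 0.08. Adamts1, a secreted protease, differed by -1.06 in pair 1 and -0.33 in pair 2 (limma adjusted p = 0.853). Of 11 cholesterol genes 2 were lower at that level, including Sqle, squalene epoxidase, at 1.64 and 0.72 against 0.48 and 0.36 (limma adjusted p = 0.741). Among 21 kinases and substrates of the p38 pathway Mapkapk5, a kinase downstream of p38, was lower (difference -0.38) and Mef2a, a transcription factor that p38 phosphorylates, higher (difference 0.41) at that level, and the median difference was -0.004.

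Lists of growth and cell maintenance gave no member that passed either. Of 11 mitotic genes 1 was lower and 1 higher at an unadjusted p under 0.05. The higher one was Top2a, DNA topoisomerase II alpha, which stood at -0.81 and -1.19 with NaCl and at -0.12 and 0.12 with the inhibitor (limma adjusted p = 0.604). Of 11 histone genes 7 were above 0 in both pairs, against 22.5% of all genes, while below 0 in both pairs were 12 of 21 other immediate early factors, 6 of 11 cholesterol genes, 9 of 17 chemokine and cytokine genes and 7 of 14 growth arrest genes, against 21.8% of all genes. The histones had a median difference of 0.14 and 0 at an unadjusted p under 0.05. Of 14 growth arrest and p53 genes, 11 genes of ERK output, 12 of G1/S, 10 heat shock proteins and 8 receptor tyrosine kinases and ephrins, 0 were at that level in either direction.

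**Figure D3:**
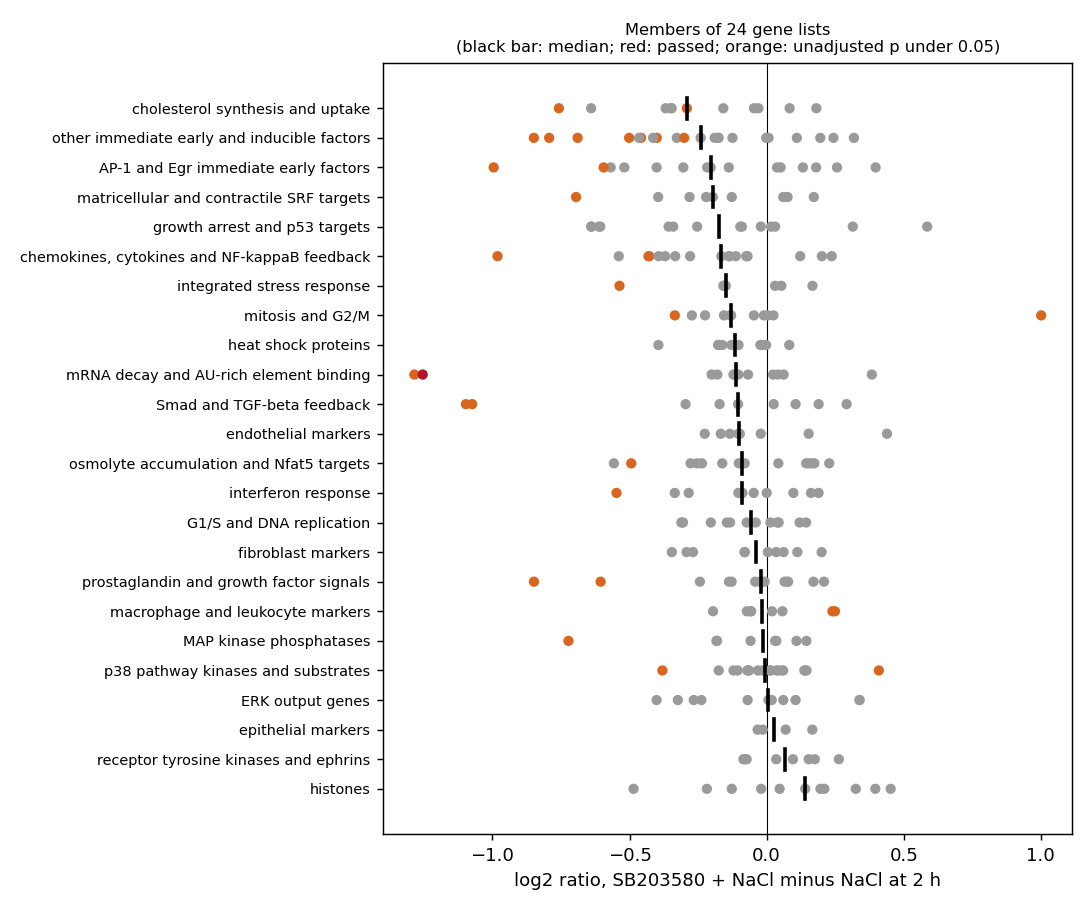
Difference in log2 ratio, SB203580 plus NaCl minus NaCl at 2 h (horizontal axis), of each tested member of 24 gene lists (rows), with black bars for medians, red for Zfp36l1, which passed, and orange for an unadjusted p under 0.05. List medians lie between -0.29 and 0.14.

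Genes were then counted by their level relative to the pool of untreated wild type cells. With NaCl 107 tested genes reached 2.5-fold over the pool, and with SB203580 plus NaCl 53 of these were still at 2.5-fold or more and 54 were not. In the other direction, 43 of the 96 genes at 2.5-fold with the inhibitor were under it with NaCl alone. The NaCl arrays chose the first set and enter the difference, so these counts are no test. Other sets were chosen on arrays that do not enter it. Of 66 tested genes at 2.5-fold over the pool after 45 min of NaCl, 4 were lower (6.06%) and 1 higher (1.52%) at an unadjusted p under 0.05, with a median difference of -0.07. Of 177 genes at 2.5-fold after 8 h, 19 were lower (10.7%) and 4 higher (2.26%), with a median of -0.10. Of 176 genes at 2.5-fold in p38alpha knock out MEFs after 2 h of NaCl, 25 were lower (14.2%) and 6 higher (3.41%), while the median was 0.12. Of these 176, Zfp36l1 and Hs3st1 passed the adjusted test. One member with a positive value was Ltc4s, the leukotriene C4 synthase, at 0.57 and 0.71 against 1.64 and 1.97 (limma adjusted p = 0.773). Among genes at 2.5-fold under the pool, 9 of 49 were lower (18.4%) and 0 higher for the knock out set, 2 of 31 lower (6.45%) and 1 higher for 45 min, and 2 of 70 lower (2.86%) and 1 higher for 8 h.

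**Figure D4:**
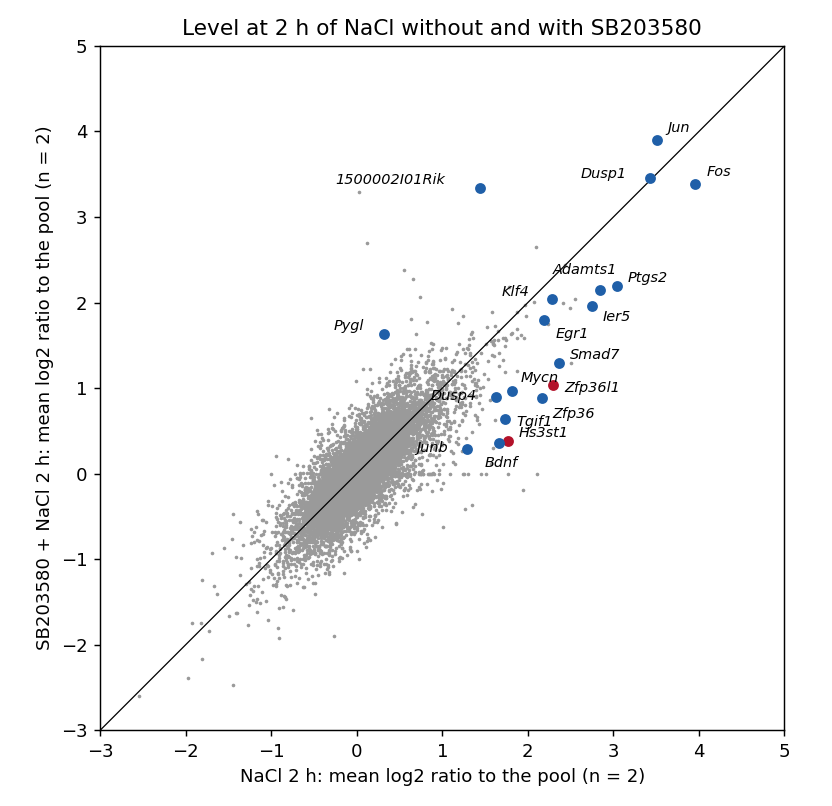
Mean log2 ratio to the pool (n = 2 arrays) with NaCl for 2 h (horizontal) and with SB203580 plus NaCl (vertical) for the 16729 genes tested (grey), with named genes in blue and Zfp36l1 and Hs3st1, which passed, in red; the line marks equal levels. Dusp1 lies on the line at 3.42 and 3.46, while Zfp36l1, Zfp36, Smad7 and Hs3st1 lie more than 1 below it.

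SB203580 was also given without stress, and the difference with NaCl was tested after subtracting the ratio of that sample to the pool. The pool then no longer cancels, so any bias between the dyes stays in the value, and 474 of 14316 genes were called lower (3.31%) and 310 higher (2.17%), with 25.8% at an unadjusted p under 0.05. These counts moved with the processing, to 153 lower and 103 higher without the replicate block and to 2211 and 2501 with the authors' matrix. Zfp36l1 was 0.36 and 0.05 with the inhibitor alone, and its difference less that level was -1.46 (limma adjusted p = 0.00543). Hs3st1 was 0.43 and 0.24 with the inhibitor alone, and its value was -1.71 (limma adjusted p = 0.00549). Both genes were chosen by the difference with NaCl, which is part of this value, so their adjusted p gives no separate support. Bdnf was below the pool with the inhibitor alone, at -0.61 and -0.51, and its value of -0.75 did not pass (limma adjusted p = 0.12). Against the pool, 15.5% of genes were lower and 19.9% higher with the inhibitor alone at an adjusted p under 0.05, with 46.3% at an unadjusted p under 0.05, and with SB203580 plus NaCl 10.4% were lower and 13.7% higher. Fos and Jun rose with the inhibitor alone, to 2.40 and 2.25 for Fos and 2.05 and 1.64 for Jun, with limma adjusted p of 0.000357 and 0.000186 against the pool.

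The same difference was measured after 45 min and 8 h of NaCl on other arrays. Zfp36l1 fell by 1.03 at 8 h (SE 0.169, limma adjusted p = 0.0161), where it stood at 0.67 and 1.21 without and at -0.30 and 0.12 with the inhibitor. At 45 min its difference was -0.84 (limma adjusted p = 0.797). Hs3st1 was still higher with NaCl at 8 h, at 2.80 and 3.42, and stood at 1.89 and 2.39 with the inhibitor (difference -0.97, limma adjusted p = 0.0586). Its difference at 45 min was -0.29. Zfp36 had returned to the pool level at 8 h, at -0.62 and -0.07 without and -0.65 and -0.27 with the inhibitor, while at 45 min its difference was -1.17 (limma adjusted p = 0.953). Dusp4 and Ptgs2 fell at 8 h, by 1.46 and 1.84 (limma adjusted p = 0.0157 and 0.04), and Jun rose at 8 h by 1.99 (limma adjusted p = 0.0157).

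Of the 12 genes named at the lower end, 9 of 12 had a difference below 0 at 8 h and 2 of them, Zfp36l1 and 9530076L18, passed there, where 37 of 15082 genes (0.245%) were called lower and 29 (0.192%) higher, and 7.55% had an unadjusted p under 0.05. Below 0 at 8 h were 49.9% of all genes. At 45 min 8 of the 10 measured were below 0, against 46.9% of all genes, and none passed, with 0 of 12180 genes called in either direction and 597 (4.9%) at an unadjusted p under 0.05. Of the 12 genes named at the upper end, 8 were above 0 at 8 h, against 50% of all genes. Mmp20 and Ifng passed there, with differences of 1.64 and 0.74 (limma adjusted p = 0.00208 and 0.0161). At 45 min 5 of these 12 were above 0, against 52.9% of all genes, and none passed. The change in the difference between times was tested as well. Between 2 h and 45 min 0 of 11862 genes passed in limma, and 620 (5.23%) had an unadjusted p under 0.05. Between 2 h and 8 h Ranbp6 passed, 1 of 14294 genes (0.007%), with 823 (5.76%) at an unadjusted p under 0.05.

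**Figure D5:**
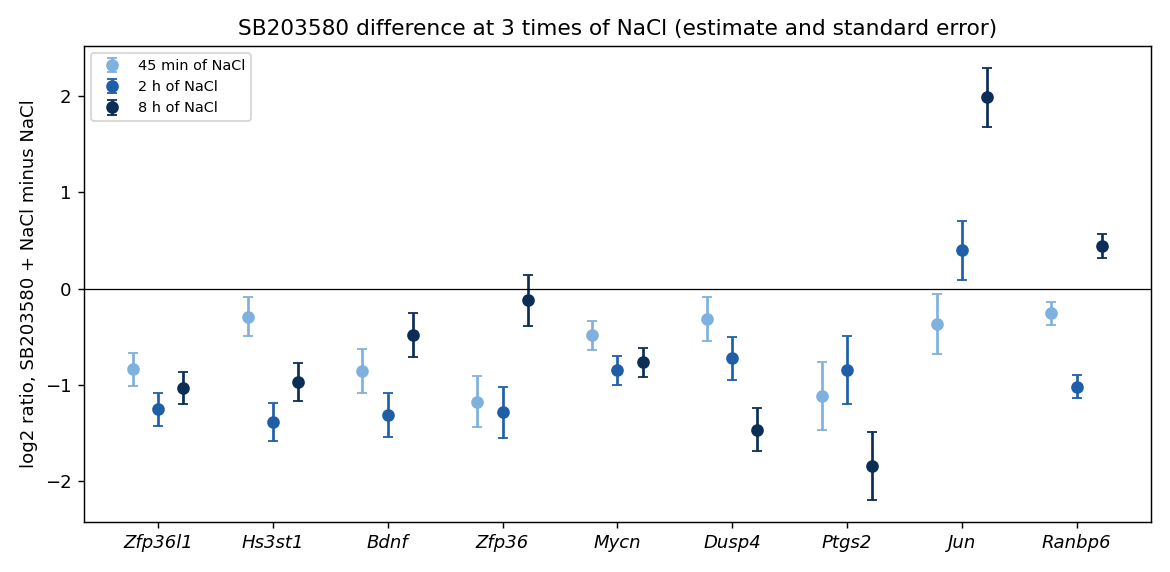
Difference in log2 ratio, SB203580 plus NaCl minus NaCl (vertical axis), at 45 min, 2 h and 8 h of NaCl (light to dark) for 9 genes, with points for limma estimates from 2 pairs and bars for their standard errors. All but Jun and Ranbp6 lie below 0 at each time. Jun lies at 0.40 at 2 h and 1.99 at 8 h, and Ranbp6 at -1.02 at 2 h and 0.44 at 8 h.

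In p38alpha knock out MEFs after 2 h of NaCl, the genes at the lower end stood at different levels. Of the 12 named genes with Ranbp6 and Fhl4, 14 in all, 8 had a mean above the pool there and 6 below it. Zfp36l1 stood at 1.84 and 1.89 with NaCl and at 0.13 and 0.63 in untreated knock out cells. Hs3st1 stood at 1.33 and 1.41, and at 0.27 and 0.15 without stress. Zfp36 was 1.42 and 1.47, Smad7 1.82 and 1.90, Mycn 1.39 and 1.69, and Bdnf 2.31 and 1.81.

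Ranbp6 was below the pool in these cells, at -0.33 and -0.94, and so were Ovca2, at -0.63 and -1.34, and 9930012K11Rik, at -1.53 and -2.99. Fhl4, at -0.02 and -0.29, Tmem202, at 0.05 and -0.41, and Hoxb2, at 0.08 and -0.35, lay near it. For 9 of the 14 genes both knock out arrays with NaCl were above both wild type arrays with SB203580 plus NaCl, and for the other 5, Fhl4, Tmem202, Hoxb2, Ovca2 and 9930012K11Rik, the groups overlapped. Over all 16338 genes with these arrays 19.7% lay above in this way, but the 14 were chosen as low on the same SB203580 plus NaCl arrays, so nothing is read from their count. The levels are given side by side and were not tested.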

How the data were processed

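The authors hybridised Cy5-labelled sample RNA against a Cy3-labelled pool on Agilent whole genome arrays and extracted signals with Feature Extraction (9.1 in the submitters' notes, 8.1.1.1 in the file headers). The deposited log10 ratio of Cy5 to Cy3, which the software had background-corrected and dye-normalized, was multiplied to the log2 scale. Deposited intensities of both channels served for background calls and for an alternative normalization. The authors also deposited a matrix of log2 ratios, used as an alternative. Its column medians ran from -0.06 to 0.03, and its normalization is not given in the sources used here.

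Control probes and outlier spots were left out, and spots of a probe, then probes of a gene, were averaged. limma 3.58.1 in R 4.3.3 fitted 11 group means and a block for the replicate number to the 22 wild type arrays (10 residual degrees of freedom), with Benjamini-Hochberg adjustment over genes measured on all arrays compared. The fit was tested on simulated data. The rule pairs the arrays by number, and all 55 pairs of wild type groups deviated together by number (r 0.13 to 0.65; 0.24 for the groups compared). Named genes were the called genes and then the smallest p, 12 a direction, among genes well above background on all 4 arrays with 1 sign in both pairs, the RT-PCR genes with Mapk14, and called or example members of lists. Members and lists were chosen with earlier results of these data known. The number of arrays limits the precision, and p-values measure the spread between these samples.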

Additional observations from a re-analysis of the deposited data

Results flagged for a closer look

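Ranbp6 had different values at 2 times of NaCl. Its difference between SB203580 plus NaCl and NaCl was -1.02 at 2 h and 0.44 at 8 h, and the change between the times was -1.46 (limma adjusted p = 0.0145). At 2 h 1 of the 2 arrays with the inhibitor was not well above background for this gene, so the size is uncertain. The 2 h difference was -0.33 with normexp and loess, and the call between the times was lost without the replicate block, where 0 genes were called lower.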

How the results depend on the processing

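As reported, 4 genes were lower and 0 higher. The differences of these 4 genes stayed below 0 under each alternative that gave them a value, while the calls did not all hold. No gene was called lower (0) with normexp background correction and loess, without the replicate block, in a fit of the 4 arrays alone with the replicate block, or with the brightest probe of each gene. With outlier spots kept 7 were called, among them Smad7 and Mycn, and with probes well above background on all 4 arrays 2, Hs3st1 and Zfp36l1. The authors' matrix gave 4 (3 of them shared), all 30 arrays 3, centring 4, quantile normalization 6 (2 shared) and, chosen after seeing the data, only probes measured on all 4 arrays 4. Leaving out single arrays or a replicate gave 0 to 16 genes lower and 0 to 3 higher. Without replicate 1 of NaCl there were 9 lower and 3 higher, without replicate 2 of NaCl 16 and 0, without replicate 1 of SB203580 plus NaCl 1 and 1, and without replicate 2 of it 0 and 1, the lone array being taken to vary like the other groups. Zfp36l1 was called in 6 of 17 alternatives (-1.32 to -1.16), Hs3st1 in 9 of 17 (-1.77 to -0.99), Ranbp6, with an array not well above background, in 8 of 16 (-1.07 to -0.33) and Fhl4 in 4 of 15. The cause was not tested.

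For the difference less SB203580 alone, 474 genes lower became 961 with normexp, 2211 with the matrix, 153 without the replicate block and 1323 with outlier spots kept, and 310 higher became 2501 with the matrix, 103 without the block and 3011 with outlier spots. Between 2 h and 8 h, 1 gene lower and 0 higher became 3 and 1 with normexp, 2 and 2 with the matrix, 0 lower without the block, and 4 and 3 with outlier spots.

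Signs turned only in genes that had not passed. Akr1b3 was 0.19 with normexp and 0.48 with probes well above background, 9530057J20Rik -0.017 with its brightest probe, and Myc 0.36 and Epha2 0.11 after quantile normalization. As arrays or a replicate were left out, Akr1b3 ran from -0.57 to 0.059, Jun from -0.023 to 0.82, Tnfaip3 from -0.29 to 0.14, Myc from -1.04 to 1.04, Klf4 from -0.54 to 0.058, Dusp1 from -0.11 to 0.18, Dusp10 from -1.01 to 0.65 and Epha2 from -0.63 to 0.49. The number of arrays and dim probes limit the precision.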
